A study of Mus musculus with 15 samples.

Results

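The enzymes and transporters described here carry glucose carbon through glycolysis, the pentose phosphate pathway and the citrate cycle. They are 49 genes of 55335 in the count files, chosen by symbol: 4 carry glucose or lactate across the plasma membrane, 11 act in the preparatory phase of glycolysis and 9 in its payoff phase and lactate production, 7 in the pentose phosphate pathway, 4 at pyruvate dehydrogenase, and 14 in the citrate cycle with its cytosolic partners. All 49 were in the files and 46 had enough reads to be tested. The other 3 were Hk3, Eno2 and Ldhb.

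RNA was sequenced from cultured mouse pre-B cells, in 3 libraries labelled Msl2 knockout and 3 labelled wild type. Per the labels, all 6 come from cells without SLP65 (Blnk), an adaptor of the pre-B cell receptor. The labels say that bone marrow cells were subcloned from 1 cell, grown with IL7, and edited by CRISPR/Cas9 with a guide RNA against Msl2, and the knockout line was compared with the wt clone. Each group is therefore 1 cultured line, no treatment was given, and p-values measure only the spread between these libraries, since nothing in the labels says that they came from separate cultures. MSL2 belongs to the MSL complex, whose acetyltransferase MOF modifies histone H4. The series also holds 9 ChIP and input samples, not analysed here.

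Glycolysis splits glucose into pyruvate in the cytosol and yields ATP, and lactate dehydrogenase turns pyruvate into lactate when glycolysis runs fast. The pentose phosphate pathway branches off glycolysis and makes NADPH and ribose phosphate for nucleotides, and pyruvate dehydrogenase and the citrate cycle oxidise pyruvate in mitochondria. Proliferating lymphocyte precursors, including pre-B cells growing with IL7, take up glucose and use these routes for energy and biosynthesis. The hypoxia-inducible factor HIF is known to raise transcription of many glycolytic genes.

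For all 6 RNA libraries the genotype tag says the opposite of the title. Groups were set by title, so every direction below rests on the titles, and KO-labelled and WT-labelled mean libraries titled MSL2KO and MSL2WT. Msl2 RNA was at 105, 103 and 121 CPM (read counts scaled to a common library size) in the KO-labelled libraries, against 97.2, 99.3 and 92.3 CPM in the WT-labelled libraries, and its adjusted p was 0.302 (edgeR's quasi-likelihood test), so it was not lost in either group and does not settle the labels. Blnk RNA was between 108 and 116 CPM in the KO-labelled and between 83.2 and 120 CPM in the WT-labelled libraries, with an adjusted p of 0.563 in the same test. Total counts were between 15250975 and 20803227 in the KO-labelled libraries and between 14092278 and 17437198 in the WT-labelled libraries. Counts of 12 B lineage markers summed to between 3110 and 3127 CPM in the KO-labelled and between 3046 and 3374 CPM in the WT-labelled libraries. Of these, 1 was called lower, Il7r (8.33%, against 2.79% of all tested genes). Il7r was at 24.7, 40.65 and 18.9 CPM in the KO-labelled against 76.1, 96.3 and 73.6 CPM in the WT-labelled libraries. It was thus 2.9-fold lower (adjusted p 0.00392 in edgeR), which the sum does not show. T and NK cell markers summed to at most 2.48 CPM and monocyte, macrophage and granulocyte markers to at most 5.75 CPM in any library. Erythroid and megakaryocyte markers summed to between 132 and 190.5 CPM in the KO-labelled and 146 and 171 CPM in the WT-labelled libraries, mostly on Hbb-bt, and Gata1 was called lower at 0.311, 0.329 and 0.066 CPM in the KO-labelled against 2.19, 1.58 and 1.79 CPM in the WT-labelled libraries (adjusted p 0.00458 in edgeR). The part of Il7r and of Gata1 in the results below was not tested. Stromal and endothelial markers summed to between 115 and 131 CPM in the KO-labelled and 103 and 123 CPM in the WT-labelled libraries, mostly on Pecam1. In bulk RNA, fewer cells of a type and less RNA per cell cannot be told apart.

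Promoters of 5 members are printed here as a description, and no difference in RNA given below rests on them. Suclg2 is the member called lower. Tpi1, Pgk1 and Slc2a1 are the 3 members of at least 10 CPM with the widest range between the KO-labelled libraries, and Ldha has the promoter with the most hypoxia cores. Each line gives the 250 bases before a RefSeq transcript start (GRCm38.p6, which is mm10), read along the gene. Capitals mark the hypoxia response core ACGTG or its reverse CACGT, the letters that HIF is known to bind.
Suclg2 (chr6:95718847-95719096, minus strand): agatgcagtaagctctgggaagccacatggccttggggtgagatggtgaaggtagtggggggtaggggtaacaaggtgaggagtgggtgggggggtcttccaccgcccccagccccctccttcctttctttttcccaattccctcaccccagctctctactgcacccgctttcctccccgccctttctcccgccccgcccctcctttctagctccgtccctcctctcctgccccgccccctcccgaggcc
Tpi1 (chr6:124814159-124814408, minus strand): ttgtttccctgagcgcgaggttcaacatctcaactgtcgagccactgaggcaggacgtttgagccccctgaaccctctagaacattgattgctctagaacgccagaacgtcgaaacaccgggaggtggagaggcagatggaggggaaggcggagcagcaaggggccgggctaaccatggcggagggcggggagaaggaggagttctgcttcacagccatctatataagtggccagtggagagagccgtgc
Pgk1 (chrX:106186850-106187099, plus strand): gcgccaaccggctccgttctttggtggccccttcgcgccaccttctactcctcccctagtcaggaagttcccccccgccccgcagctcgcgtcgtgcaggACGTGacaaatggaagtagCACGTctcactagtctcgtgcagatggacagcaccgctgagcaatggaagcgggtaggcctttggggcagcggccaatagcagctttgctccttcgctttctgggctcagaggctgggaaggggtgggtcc
Slc2a1 (chr4:119108495-119108744, plus strand): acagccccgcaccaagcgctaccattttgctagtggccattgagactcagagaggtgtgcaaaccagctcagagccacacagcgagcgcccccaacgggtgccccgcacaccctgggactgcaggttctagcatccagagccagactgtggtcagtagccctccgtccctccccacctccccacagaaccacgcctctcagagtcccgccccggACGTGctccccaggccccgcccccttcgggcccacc
Ldha (chr7:46845554-46845803, plus strand): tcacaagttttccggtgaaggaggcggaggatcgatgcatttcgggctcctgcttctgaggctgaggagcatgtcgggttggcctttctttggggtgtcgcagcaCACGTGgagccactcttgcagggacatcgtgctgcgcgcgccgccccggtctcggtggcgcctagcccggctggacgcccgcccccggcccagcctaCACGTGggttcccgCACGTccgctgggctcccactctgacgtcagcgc
The Ldha start used here is not the only RefSeq start of the gene and lies inside its span. The other Ldha promoter had 0 cores before its start. Pgk1 had 2 cores, starting 150 and 131 bases before the start, Slc2a1 had 1 at 36 bases, and Ldha had 5 matches in 3 places, as CACGTG holds the core on both strands. Suclg2 and Tpi1 had none in this window, while Suclg2 had 5 GC boxes (GGGCGG on either strand).

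Of the members, 47 of 49 matched a promoter in the RefSeq table, and Slc2a3 and Idh3a did not. In the window from 250 bases before to 50 after a start, searched on both strands, 15 of 23 transport and glycolysis genes held ACGTG (65.2%), against 1 of 7 pentose phosphate genes (14.3%), 4 of 17 pyruvate dehydrogenase and citrate cycle genes (23.5%) and 21.8% of all genes in the table. A gene with several starts counts if any promoter holds the motif. Counted by promoter, ACGTG stood in 18 of 35 transport and glycolysis promoters (51.4%) and 1 of 8 pentose phosphate promoters (12.5%). It stood in 9 of 24 pyruvate dehydrogenase and citrate cycle promoters (37.5%) and in 19.6% of all promoters. Most of those 9 promoters were starts of the same gene, Ogdh, so the contrast with these members depended on the unit counted. GC boxes stood in 76.6% of member genes and 38.2% of all genes, and the mean GC content was 60.1% in member promoters and 53.8% in all. The core of the YY1 motif, AANATGGC, stood in 4 of 47 member genes (8.51%) and in 6.96% of all genes. The E-box CACGTG, which contains the hypoxia core, stood in 10.6% and 8.09%, and the antioxidant response core TGANNNNGC in 53.2% and 45.0%. A match is a description of the letters and not a site of binding.

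Across the whole set, few differences between the groups passed the test. Of the 46 tested members, 1 was called lower, Suclg2, and 0 higher, at an adjusted p under 0.05 over all 13077 tested genes in edgeR's quasi-likelihood test. Among all tested genes 2.79% were called lower and 1.8% higher, so 1 of 46 members lower (2.17%) is near the background. The unadjusted p was under 0.05 for 10 members that were lower (21.7%, against 8.43% of all tested genes) and for 1 that was higher, Dlst (6.94% of all tested genes were higher at that p). All 3 KO-labelled libraries lay below all 3 WT-labelled libraries for 12 members (26.1%, against 11.2% of all tested genes) and above them for 1 (against 9.68%). With the replicate number as a block, edgeR called 6 members lower, Dlat, Idh2, Ogdh, Pfkfb3, Slc2a1 and Suclg2, but whether the numbers pair the libraries depended on the genes used to check it.

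The sizes were small and mostly negative. The log2 fold change (log2FC, KO-labelled over WT-labelled) was negative for 35 of 46 members (76.1%), against 49% of all tested genes, and its median was -0.09, against 0.004 over all tested genes. It ran from -0.85 for Hk1 to 0.44 for Aldoc, both of them genes at the edge of detection. For 40 of the 46 members the 95% interval of the fold change lay within 1.5-fold in either direction. The 6 with wider intervals were Slc16a3, Slc2a1, Hk1, Tpi1, Pfkl and Aldoc. Members share an enzyme complex, a pathway or both, so they are not independent of each other, and the median was -0.15 without KO-labelled replicate 1.

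**Figure D1:**
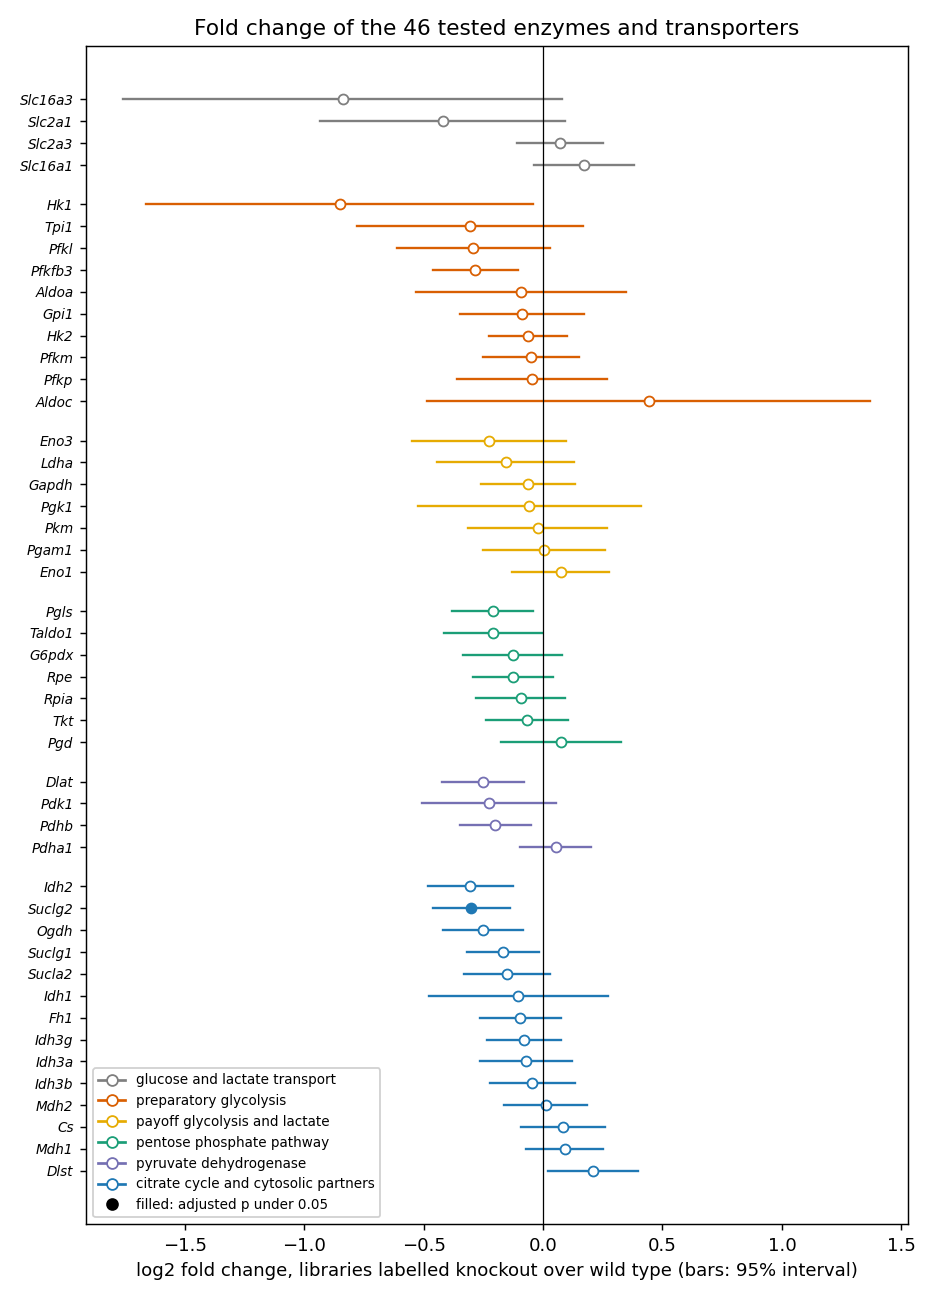
Log2 fold change (x axis, libraries labelled knockout over libraries labelled wild type) of the 46 tested members, grouped by role from top to bottom, with 95% intervals from edgeR's quasi-likelihood fit as bars. Most points lie left of 0, and Suclg2 is the filled point.

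At an unadjusted p under 0.05 in edgeR, 2 of 4 pyruvate dehydrogenase members (50%) and 4 of 14 citrate cycle members (28.6%) were lower. Among all tested genes 8.43% were lower at that p. In the citrate cycle 1 member, Dlst, was higher at that p, against 6.94% of all tested genes. Of the 14 citrate cycle members, 10 had negative fold changes, 5 had the KO-labelled libraries wholly below (35.7%, against 11.2% of all tested genes) and 1 had them wholly above (against 9.68%), and the median was -0.09. Suclg2 (ENSMUSG00000061838.7, chromosome 6, 95473009 to 95718858, mm10) encodes the GTP-specific beta subunit of succinyl-CoA ligase, which releases succinate. It was at 103, 96.2 and 98.7 CPM in the KO-labelled libraries, against 128, 115 and 124 CPM in the WT-labelled libraries. The groups did not overlap. Its mean was 99.25 ± 3.34 CPM in the KO-labelled and 122 ± 6.66 CPM in the WT-labelled libraries (SD, n = 3 each), for a log2FC of -0.30 ± 0.07 (SE) and an adjusted p of 0.0446 in edgeR. That call was lost when any 1 of the 6 libraries was left out, with adjusted p between 0.0615 and 0.214 and log2 fold changes between -0.35 and -0.27.

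The partner subunits of Suclg2 showed smaller differences. Suclg1, the alpha subunit shared by the GTP and ATP forms, was at 116, 114 and 117 CPM in the KO-labelled libraries, against 124, 131 and 134 CPM in the WT-labelled libraries, with no overlap and an adjusted p of 0.258 (edgeR). Sucla2, the ATP-specific beta subunit, was at 83.1, 82.5 and 88.3 CPM in the KO-labelled against 95.1, 85.3 and 101 CPM in the WT-labelled libraries, and the groups overlapped (adjusted p 0.454, edgeR). The 3 fold changes were all negative, at -0.30 for Suclg2, -0.17 for Suclg1 and -0.15 for Sucla2 on the log2 scale.

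Among the enzymes that precede succinyl-CoA ligase, Idh2 and Ogdh were lower in all 3 KO-labelled libraries without passing the test. Idh2, the mitochondrial NADP isocitrate dehydrogenase, was at 75.2, 65.95 and 69.0 CPM in the KO-labelled libraries, against 82.1, 85.5 and 91.7 CPM in the WT-labelled libraries. Its log2FC was -0.30 (95% interval -0.48 to -0.13), and its adjusted p was 0.0628 in edgeR and 0.0377 in DESeq2. Ogdh, the E1 subunit of the alpha-ketoglutarate dehydrogenase complex, was at 130, 141 and 150.1 CPM in the KO-labelled against 165, 166 and 170.4 CPM in the WT-labelled libraries. Its log2 fold change was -0.25, with an adjusted p of 0.0991 (edgeR). Dlst, the E2 subunit of the same complex, went the other way, at 176, 187 and 196 CPM in the KO-labelled libraries against 145, 163 and 174 CPM in the WT-labelled libraries. It was the member with the KO-labelled libraries wholly above, by a log2FC of 0.21 (95% interval 0.02 to 0.40), with an adjusted p of 0.257 (edgeR).

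Fh1, fumarase, was the fifth citrate cycle member without overlap, at 224, 222 and 222 CPM in the KO-labelled libraries against 229, 225 and 259 CPM in the WT-labelled libraries, with an adjusted p of 0.662 (edgeR). The other citrate cycle members had overlapping groups and adjusted p between 0.659 and 0.975 (edgeR). They were Cs (citrate synthase), Idh1 (the cytosolic NADP isocitrate dehydrogenase), the 3 subunits of the NAD isocitrate dehydrogenase (Idh3a, Idh3b, Idh3g), Mdh1 and Mdh2 (cytosolic and mitochondrial malate dehydrogenase). Idh1 was at 21.7 ± 4.31 CPM in the KO-labelled and 23.4 ± 4.63 CPM in the WT-labelled libraries (SD, n = 3 each).

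Pyruvate dehydrogenase joins pyruvate to the citrate cycle, and 3 of its 4 members had negative fold changes, with a median of -0.21. Dlat, the E2 subunit, was at 100.4, 100.1 and 108 CPM in the KO-labelled libraries, against 118, 117.5 and 132 CPM in the WT-labelled libraries, and Pdhb, the E1 beta subunit, was at 114, 115 and 117 CPM in the KO-labelled against 137, 128 and 132 CPM in the WT-labelled libraries. Neither overlapped between groups, and their adjusted p were 0.108 and 0.152 (edgeR). Pdha1, the E1 alpha subunit that pairs with Pdhb, had overlapping groups at 184 ± 4.21 CPM in the KO-labelled and 178 ± 5.21 CPM in the WT-labelled libraries (SD, n = 3 each), with an adjusted p of 0.81 (edgeR). Pdk1, the kinase that inhibits the complex, was at 305, 249 and 210.1 CPM in the KO-labelled libraries against 327.5, 286 and 281 CPM in the WT-labelled libraries, and had an adjusted p of 0.464 (edgeR).

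**Figure D2:**
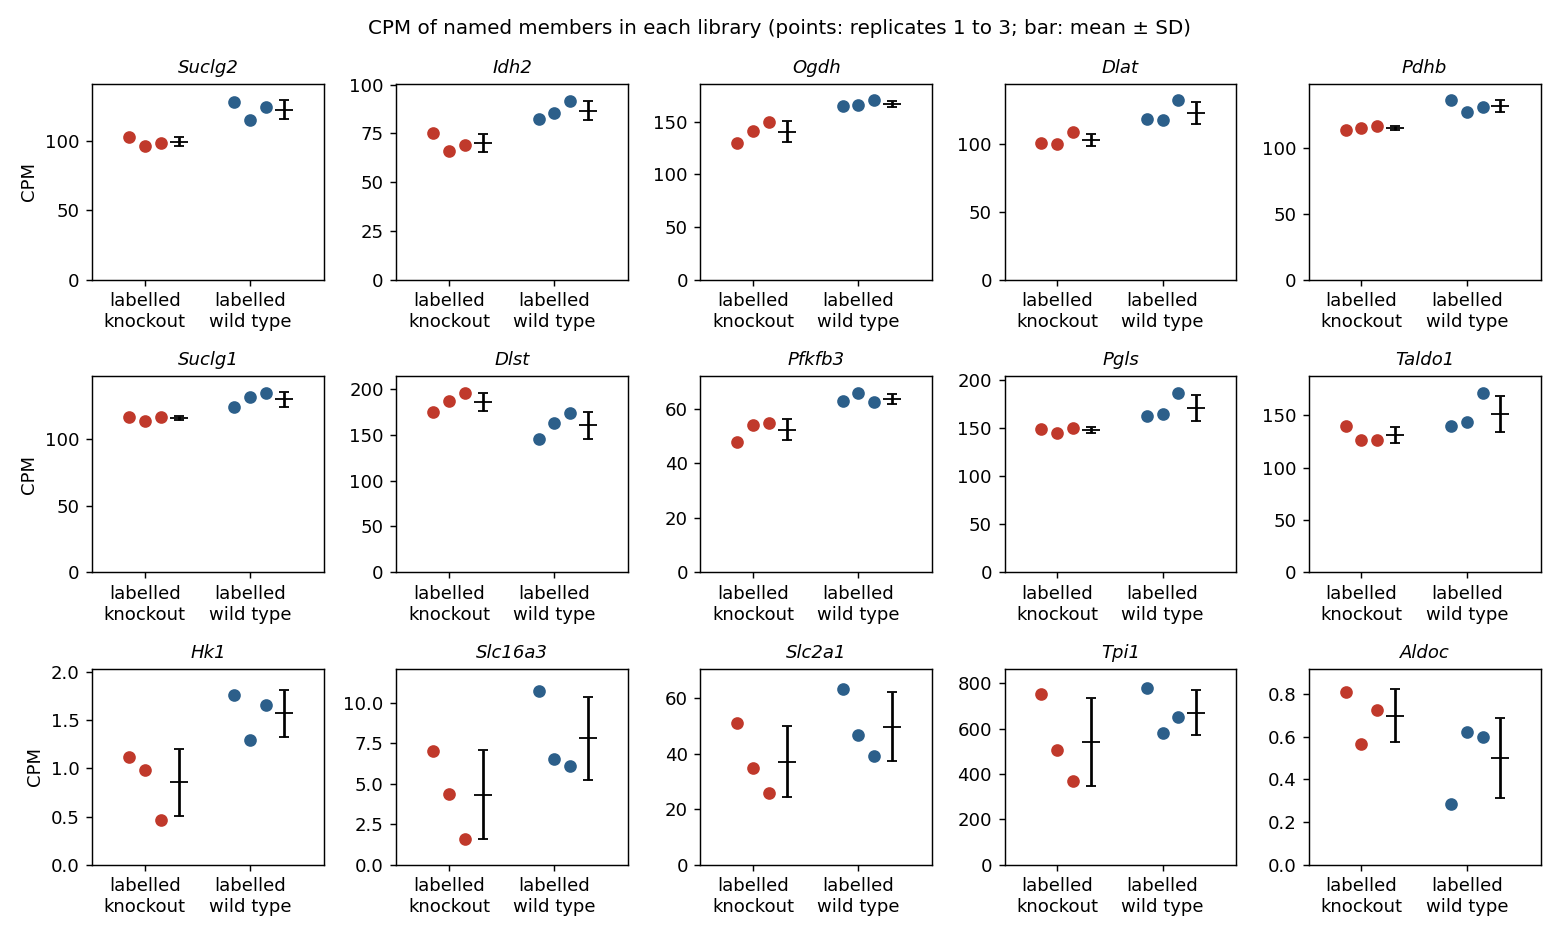
CPM (y axis, from 0) of 15 members in each library, with KO-labelled libraries left and WT-labelled libraries right, points for replicates 1 to 3 and bars for mean ± SD. Suclg2, Idh2, Ogdh, Dlat and Pdhb show tight, separate groups, whereas Slc16a3, Slc2a1 and Tpi1 spread widely within the KO-labelled group.

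The pentose phosphate pathway had 6 of 7 members with negative fold changes, a median of -0.13, and 3 members with the KO-labelled libraries wholly below (42.9%, against 11.2% of all tested genes). None passed the test. Pgls, which opens the lactone ring after the NADPH-making step, was at 149.5, 145 and 150.1 CPM in the KO-labelled libraries, against 162, 165 and 187 CPM in the WT-labelled libraries (log2FC -0.21, adjusted p 0.197 in edgeR). Taldo1, transaldolase of the non-oxidative branch, was at 140.2, 127 and 127 CPM in the KO-labelled against 140, 143 and 171 CPM in the WT-labelled libraries (log2FC -0.21, adjusted p 0.313 in edgeR), and its groups overlapped.

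The entry enzyme of the pathway, G6pdx, was at 33.6, 29.1 and 34.8 CPM in the KO-labelled libraries against 35.3, 35.5 and 35.6 CPM in the WT-labelled libraries, with no overlap, a log2FC of -0.13 and an adjusted p of 0.614 (edgeR). Rpe, an epimerase of the non-oxidative branch, was the other member without overlap, at 86.05, 86 and 86.5 CPM in the KO-labelled against 91.9, 88.2 and 102 CPM in the WT-labelled libraries, with an adjusted p of 0.513 (edgeR). Rpia and Tkt had negative fold changes of -0.09 and -0.07 on the log2 scale. Pgd, the second NADPH-making enzyme, had the sole positive one at 0.08, and was at 101, 112 and 141 CPM in the KO-labelled libraries against 107, 113.5 and 115 CPM in the WT-labelled libraries.

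In transport and glycolysis no member was called, and many varied between libraries of 1 group. Of 21 tested members, 16 had negative fold changes, 0 were called, and 2 had the KO-labelled libraries wholly below, Hk1 and Pfkfb3 (9.52%, near the 11.2% of all tested genes). Pfkfb3 makes the sugar bisphosphate that activates phosphofructokinase, and was at 47.9, 54.3 and 55.0 CPM in the KO-labelled libraries against 62.9, 65.9 and 62.5 CPM in the WT-labelled libraries. Its log2 fold change was -0.28 (95% interval -0.46 to -0.10) and its adjusted p 0.0836 (edgeR).

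The bulk of the glycolytic RNA did not separate the groups. The 3 members with the highest mean CPM were Pkm (pyruvate kinase), Ldha (lactate dehydrogenase A) and Eno1 (enolase), with CPM compared here within a gene and not between genes. Pkm was at 2656, 2124 and 1819 CPM in the KO-labelled libraries against 2432, 2079 and 2191 CPM in the WT-labelled libraries, a log2FC of -0.02 (95% interval -0.31 to 0.27). Ldha was at 2073, 1662 and 1465 CPM in the KO-labelled against 2086, 1719 and 1989 CPM in the WT-labelled libraries, and Eno1 at 2006, 1715 and 1750 CPM in the KO-labelled against 1840, 1635 and 1723 CPM in the WT-labelled libraries. The groups overlapped for all 3, and adjusted p were 0.971, 0.676 and 0.808 (edgeR). Gapdh, often used as a reference gene, was at 1116, 1001 and 995 CPM in the KO-labelled against 1162, 990.5 and 1101 CPM in the WT-labelled libraries, with a log2FC of -0.06 (95% interval -0.26 to 0.13).

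Slc2a1, Tpi1 and Slc16a3 were among the 6 tested members with the largest fold changes, and they also varied widely within a group. Slc2a1, the glucose transporter GLUT1, was at 50.9, 34.7 and 25.9 CPM in the KO-labelled libraries against 63.5, 46.8 and 39.1 CPM in the WT-labelled libraries (log2FC -0.42, 95% interval -0.93 to 0.09, adjusted p 0.459 in edgeR). Its highest library was 1.97-fold above its lowest in the KO-labelled group and 1.62-fold in the WT-labelled group, and the groups overlapped. Tpi1, triose phosphate isomerase, was at 754, 504 and 371 CPM in the KO-labelled against 779.7, 583 and 651.5 CPM in the WT-labelled libraries, with a log2FC of -0.31 (95% interval -0.78 to 0.17). Slc16a3, a lactate exporter, was at 7.03, 4.37 and 1.58 CPM in the KO-labelled libraries against 10.7, 6.54 and 6.1 CPM in the WT-labelled libraries, a 4.44-fold range within the KO-labelled group and an adjusted p of 0.384 (edgeR). Slc16a1, the other monocarboxylate transporter, was at 548, 599 and 655 CPM in the KO-labelled against 491.5, 524 and 585 CPM in the WT-labelled libraries, and Slc2a3 had a log2FC of 0.07. With no filter on low counts, edgeR called Slc2a1, Slc16a3 and Tpi1 lower, with adjusted p of 0.00213, 0.00216 and 0.0194.

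The between-library pattern was shared by much of the pathway, and it was described after the values were seen, with no test. Of 21 transport and glycolysis members, KO-labelled replicate 1 had the highest KO-labelled value in 18 and replicate 3 in the other 3, and WT-labelled replicate 1 had the highest WT-labelled value in 14. Replicate 3 was the lowest KO-labelled library for 15. Pgk1, phosphoglycerate kinase, was at 1227, 821.5 and 617 CPM in the KO-labelled libraries against 1091, 841 and 843 CPM in the WT-labelled libraries, and Aldoa, aldolase A, was at 1662, 1142 and 902.5 CPM in the KO-labelled against 1560, 1120 and 1268 CPM in the WT-labelled libraries. In both genes KO-labelled replicate 1 was above, and replicate 3 below, all WT-labelled libraries. Among 18 such members with a mean of at least 10 CPM, the median ratio of highest to lowest library was 1.39 in the KO-labelled and 1.18 in the WT-labelled group, and 5 of them (27.8%) exceeded 1.5-fold in the KO-labelled and 1 (5.56%) in the WT-labelled group. The other 25 members at that level had medians of 1.1 in the KO-labelled and 1.12 in the WT-labelled group, with 0 over 1.5-fold, and all 8397 tested genes at that level had medians of 1.13 in the KO-labelled and 1.16 in the WT-labelled group, with 3.78% of them over 1.5-fold in the KO-labelled and 4.19% in the WT-labelled group.

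The pentose phosphate and mitochondrial members did not follow this order. KO-labelled replicate 3 was the highest KO-labelled library for 6 of 7 pentose phosphate members and for 13 of 18 pyruvate dehydrogenase and citrate cycle members, and WT-labelled replicate 3 was the highest of its group for 7 of 7 and 14 of 18. Over all tested genes, each library was the highest of its group for between 3720 and 5039 of 13077. Replicate numbers carry no order, and whether they pair libraries across the groups is not settled, as given in the closing section. What same-numbered libraries may share was not tested.

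HIF targets outside glycolysis were also mostly highest in replicate 1 of each group, but their lowest WT-labelled library was another. Of 18 tested, KO-labelled replicate 1 was the highest of its group for 16 and WT-labelled replicate 1 for 12, and KO-labelled replicate 3 was the lowest for 14. WT-labelled replicate 3 was the lowest of its group for 12 of the 18 HIF targets, whereas WT-labelled replicate 2 was the lowest for 12 of the 21 transport and glycolysis members and replicate 3 for 5. Ankrd37 and Ero1l were named after their values were seen. Ankrd37 was at 42, 20.2 and 10 CPM in the KO-labelled libraries against 33.4, 19.9 and 10.4 CPM in the WT-labelled libraries, and Ero1l, an oxidase of the endoplasmic reticulum, was at 291, 175 and 121 CPM in the KO-labelled against 363, 233 and 141 CPM in the WT-labelled libraries. 0 of the 18 were called between the groups, with 5 at an unadjusted p under 0.05 in edgeR's quasi-likelihood test. Of these, 4 were lower (22.2% of the 18, against 8.43% of all tested genes) and 1 was higher (against 6.94%). The part of HIF in the spread of the glycolytic members was not tested.

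**Figure D3:**
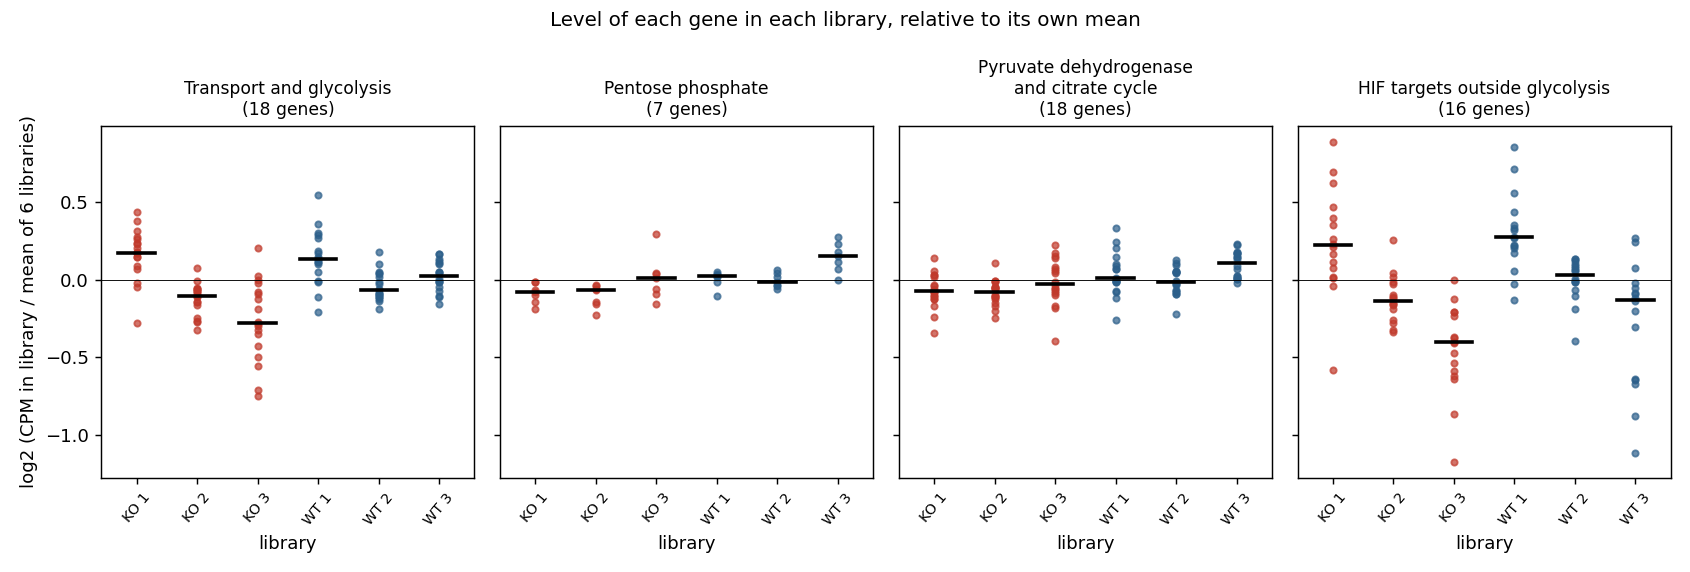
Log2 ratio of a gene's CPM in a library to its mean over the 6 libraries (y axis), for genes of at least 10 CPM in 4 sets, with the 3 KO-labelled libraries left, the 3 WT-labelled libraries right and medians as bars. The median of the 18 transport and glycolysis members was 0.18, -0.10 and -0.28 in the KO-labelled and 0.13, -0.07 and 0.02 in the WT-labelled libraries, and that of the 16 HIF targets was 0.22, -0.14 and -0.40 in the KO-labelled and 0.27, 0.03 and -0.13 in the WT-labelled libraries.

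Summed over the members, RNA levels did not separate the groups. The summed level of all members was 18440, 15560 and 14610 CPM in the KO-labelled libraries against 17990, 15730 and 17030 CPM in the WT-labelled libraries, a ratio of means of 0.958. The groups overlapped. The pentose phosphate members summed to 1349, 1363 and 1435 CPM in the KO-labelled against 1446, 1398 and 1573 CPM in the WT-labelled libraries, and the citrate cycle members to 2390, 2390 and 2549 CPM in the KO-labelled against 2428, 2443 and 2633 CPM in the WT-labelled libraries.

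Isozyme choice was compared as the share of a family's reads that fell on 1 gene, not corrected for gene length, so shares describe changes between libraries and not which isozyme is more abundant. In 3 of 8 families the groups did not overlap. Hk1 took 0.988%, 0.901% and 0.405% of hexokinase reads in the KO-labelled libraries, against 1.41%, 1.09% and 1.51% in the WT-labelled libraries, Hk2 taking nearly all the rest. Pfkl, the liver-type phosphofructokinase, had 240.1, 183 and 161 CPM in the KO-labelled libraries against 267, 205 and 243 CPM in the WT-labelled libraries (log2FC -0.29, adjusted p 0.382 in edgeR). It took 36.5%, 35.4% and 36.3% of phosphofructokinase reads in the KO-labelled libraries against 40.7%, 37.0% and 42.4% in the WT-labelled libraries. Eno3, the muscle-type enolase, took 0.711%, 0.612% and 0.589% of enolase reads in the KO-labelled libraries against 0.739%, 0.801% and 0.825% in the WT-labelled libraries. With 3 libraries against 3, a two-sided exact permutation test cannot go below 0.1, which these 3 shares reached, and their adjusted p over the 8 families was 0.267.

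The remaining families overlapped, with two-sided exact permutation p between 0.2 and 0.6. Slc2a1 took 47.4 ± 7.82% of the reads of Slc2a1 and Slc2a3 in the KO-labelled libraries and 56.2 ± 6.91% in the WT-labelled libraries (SD, n = 3 each). Suclg2 took 54.0 ± 1.28% of the reads of Suclg2 and Sucla2 in the KO-labelled and 56.6 ± 1.28% in the WT-labelled libraries (SD, n = 3 each). Idh2 of Idh1 plus Idh2, Slc16a3 of Slc16a1 plus Slc16a3, and Aldoc of Aldoa plus Aldoc also overlapped.

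**Figure D4:**
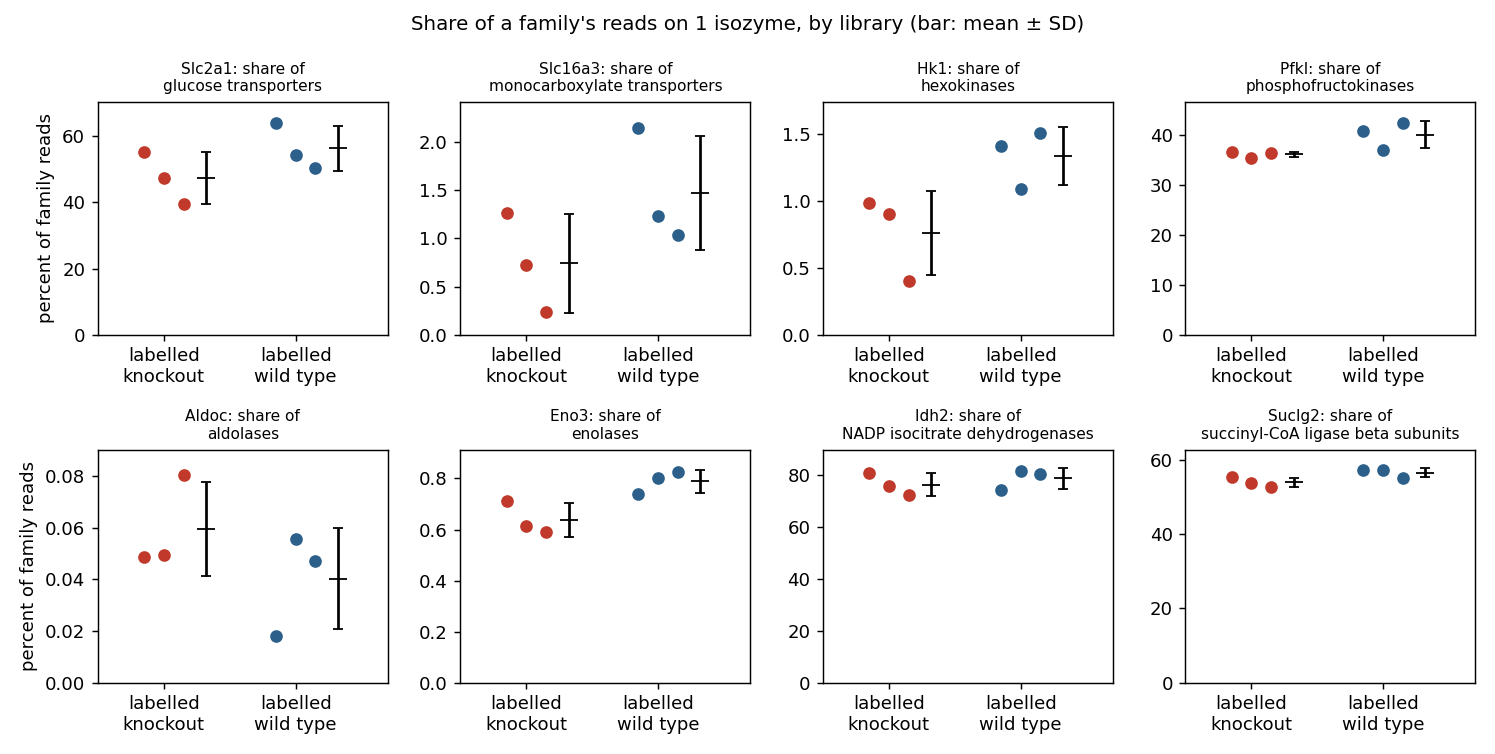
Percent of a family's reads on 1 isozyme (y axis, from 0) in each library, for 8 families, with KO-labelled libraries left, WT-labelled libraries right and bars for mean ± SD. Hk1, Pfkl and Eno3 are the 3 families without overlap between the groups.

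Several isozymes were near or below detection. Hk1 had 1.12, 0.986 and 0.462 CPM in the KO-labelled libraries against 1.77, 1.3 and 1.66 CPM in the WT-labelled libraries, with an adjusted p of 0.294 (edgeR). Aldoc, the brain-type aldolase, had 0.808, 0.563 and 0.726 CPM in the KO-labelled against 0.283, 0.62 and 0.597 CPM in the WT-labelled libraries, with an adjusted p of 0.729 (edgeR). Ldhb, the heart-type lactate dehydrogenase, had 0 reads in all 6 libraries, and a count of 0 allows up to between 0.141 and 0.212 CPM per library, for counting error only. Hk3 had 2, 3 and 3 reads in the KO-labelled libraries against 1, 3 and 1 in the WT-labelled libraries, and Eno2, the neuronal enolase, had 0, 2 and 0 reads in the KO-labelled against 0, 0 and 2 in the WT-labelled libraries. Of the isozymes not yet described, Hk2, Pfkm, Pfkp, Gpi1 and Pgam1 had overlapping groups and log2FC between -0.09 and 0.004.

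Glycolytic genes have processed copies in the genome that could take some of their reads. Named copies held few reads: over the 6 libraries, Eno1b had 112 reads against 176309 for Eno1. For Gapdh, Ldha, Pgk1, Tpi1 and Aldoa they came to between 0.00191% and 0.0531% of the parent gene's reads, and for Pgam1 to 0.54%. How reads with several matches were counted is not given in the sources used here, so reads of near-identical copies that carry no name of their own were not assessed.

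Other genes of these and neighbouring pathways held 8 calls. Of 178 genes in 9 lists, 134 were tested, and 8 were called lower (5.97%, against 2.79% of all tested genes) and 0 higher (against 1.8%). Pfkfb4, a relative of Pfkfb3 that sets the same activator of phosphofructokinase, was at 8.02, 8.68 and 7.33 CPM in the KO-labelled libraries against 13.8, 12.6 and 13.3 CPM in the WT-labelled libraries, 1.64-fold lower with an adjusted p of 0.00963 (edgeR). Pcx, pyruvate carboxylase, which makes oxaloacetate from pyruvate, was at 41.8, 35.6 and 36.4 CPM in the KO-labelled against 58.9, 52.6 and 55.6 CPM in the WT-labelled libraries (log2FC -0.55, adjusted p 0.0059 in edgeR). The groups did not overlap for either gene.

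Of 4 tested genes of the phosphoglucomutase family, whose members connect glycolysis to glycogen and sugar nucleotides, Pgm2l1 and Pgm1 were called lower. Pgm2 (log2FC -0.18, adjusted p 0.578 in edgeR) and Pgm3 (log2FC -0.04, adjusted p 0.894 in edgeR) were not. Among all tested genes 2.79% were called lower. Pgm2l1, a relative of the phosphoglucomutases that makes glucose bisphosphate, was at 100, 103 and 93 CPM in the KO-labelled libraries against 140.2, 145 and 128 CPM in the WT-labelled libraries (log2FC -0.48, adjusted p 0.0058 in edgeR). Pgm1, a phosphoglucomutase, was at 93.3, 96.1 and 72.6 CPM in the KO-labelled against 155, 119.1 and 119.4 CPM in the WT-labelled libraries (log2FC -0.59, adjusted p 0.0313 in edgeR). Prps2, which makes the activated ribose for nucleotides from the pentose phosphate product, was at 177, 191 and 198 CPM in the KO-labelled against 243, 232 and 264 CPM in the WT-labelled libraries, with an adjusted p of 0.0211 (edgeR). Pdpr, the regulatory subunit of pyruvate dehydrogenase phosphatase, was at 25.9, 28.4 and 27.5 CPM in the KO-labelled against 39.4, 36.2 and 32.4 CPM in the WT-labelled libraries, with an adjusted p of 0.0468 (edgeR). Hmox1, heme oxygenase, an NRF2 target, was at 0.808, 1.13 and 0.33 CPM in the KO-labelled against 4.38, 4.17 and 3.12 CPM in the WT-labelled libraries (log2FC -2.31, adjusted p 0.00533 in edgeR). Leaving out 1 library ended the call of Pdpr in all cases but WT-labelled replicate 3 (adjusted p between 0.108 and 0.165 in edgeR), and of Prps2 and Pgm1 in 3 cases each (0.0627 to 0.0858 and 0.0553 to 0.0943). Over the 13 alternatives listed below, the call ended in 7 for Pdpr, 5 for Pgm1 and 3 for Prps2. The calls of Pdpr and Pgm1 were thus also lost in settings that kept all 6 libraries.

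Among all tested genes 2.79% were called lower. By list, the 16 tested glycolytic isozymes and regulators outside the set had 1 call (Pfkfb4, 6.25%), and the 7 pentose phosphate and ribose genes 1 (Prps2, 14.3%). The 11 pyruvate dehydrogenase and mitochondrial pyruvate genes had 2 (Pdpr and Pcx, 18.2%), and the 18 glycogen, gluconeogenesis and hexosamine genes 2 (Pgm2l1 and Pgm1, 11.1%). Each of these shares rests on 1 or 2 genes. The 9 tested NRF2 targets had 1 call (Hmox1, lower, 11.1%), while the other 8 had positive fold changes, and the median log2FC of the 9 was 0.13. Of these 8, 3 were at an unadjusted p under 0.05 in edgeR (6.94% of all tested genes were higher at that p). The KO-labelled libraries lay wholly above for 3 of them, against 9.68% of all tested genes. The 18 regulators of glycolytic transcription, 18 HIF targets and 17 AMPK and mTORC1 genes had 0 calls, with 3, 5 and 0 genes at an unadjusted p under 0.05 in edgeR. Among all 13077 tested genes, 2010 were under that p in either direction.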

How the data were processed

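The authors deposited raw whole-number counts per gene, 1 file for each of 6 RNA libraries. Ribosomal RNA was depleted from total RNA, per the labels' protocols. Per the submitters' processing notes, the tools include featureCounts 2.0.0 and STAR 2.5.3a, and the build is mm10. Strand setting and multi-mapping rule: not given in the sources used here.

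Groups follow the sample titles. Genes were kept by filterByExpr (13077 of 55335), scaled by TMM, and fitted in R 4.3.3 with edgeR 4.0.16 (quasi-likelihood, without covariates), and called under an adjusted p of 0.05 (Benjamini-Hochberg, all tested genes together). CPM use TMM-scaled library sizes, and the floor is 3 reads. Isozyme shares used exact permutation over libraries. Promoters came from RefSeq, GRCm38.p6.

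The members and lists were chosen with earlier results of these data known. Values in every library were given for members called, members with an unadjusted p under 0.05, the 6 with the largest fold changes, isozyme families, the 3 highest members, called pathway genes, Msl2 and Blnk. Other genes were chosen after seeing values. Values of 1 called pathway gene are not given. On counts simulated for this comparison (12805 genes), 20% of 50 genes changed 1.25-fold, 54% of 50 changed 1.5-fold and 82% of 50 changed 2-fold were recovered, and 9 of 12606 unchanged genes were called. Libraries of a group differed beyond sampling noise, with chi-square over degrees of freedom between 7.38 and 19.3. Alternatives were RLE scaling, library totals, no filter, a mean log2 CPM of at least 2, DESeq2 1.42.0, limma-voom 3.58.1, a replicate block, and each library left out in turn.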

Additional observations from a re-analysis of the deposited data

How the results depend on the processing

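Suclg2 stayed lower under every alternative run, and its call held under all except those leaving out a library, where no member was called (0 lower in each). The count of members called lower, 1 in the comparison as reported, was 6 with no filter on low counts (Idh2, Pfkl, Slc16a3, Slc2a1, Suclg2, Tpi1) and 2 with DESeq2 (Idh2, Suclg2), and 0 members were called higher under any. The median member fold change was between -0.153 and -0.0598 (log2) over the libraries left out. With the replicate number as a block, 6 members were called lower (Dlat, Idh2, Ogdh, Pfkfb3, Slc2a1, Suclg2), 6 other pathway genes higher and 13 lower, and 381 genes higher and 565 lower overall. Slc2a1 was lower in each same-numbered pair, with an adjusted p of 0.0164 under the block. Whether the numbers pair the libraries is not settled: deviations of same-numbered libraries correlated at 0.0294, 0.212 and 0.403 over all tested genes (4 of 6 libraries best with their own number), and at 0.227, 0.225 and 0.461 over 9639 genes above the expression minimum given next (6 of 6). Over all tested genes, 235 were higher and 365 lower; these were 482 and 721 with no filter, 231 lower at an expression minimum of 2 (mean log2 CPM), and between 138 and 227 higher and 242 and 316 lower leaving out a library. Of the other pathway genes, 0 higher and 8 lower became 1 higher with RLE scaling, 2 higher with library totals only, 7 higher and 16 lower with no filter, 1 higher and 5 lower with that expression minimum, 5 higher with DESeq2, and between 0 and 3 higher and 4 and 8 lower leaving out a library. Pfkfb4, Pcx and Pgm2l1 kept their calls under all 13 alternatives, and Hmox1 under the 12 in which it was tested, not with the expression minimum. The cause of these differences was not tested. With 3 libraries a group, depth and number limit what could be seen. In simulation 1.5-fold changes were often missed, but the changed genes were drawn from all genes with a mean over 1 CPM. Of the 46 tested members, 43 had a mean of at least 10 CPM, so that share does not describe them. For 40 of the 46 the 95% interval lay within 1.5-fold in either direction.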
